A study of Mus musculus with 9 samples.

Results

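CC chemokine ligands are small secreted proteins that draw leukocytes into tissue, and 10 of their genes (*Ccl2*, *Ccl3*, *Ccl4*, *Ccl5*, *Ccl6*, *Ccl7*, *Ccl8*, *Ccl9*, *Ccl12*, and *Ccl24*) were followed here by symbol among the 50559 genes listed for each RNA-Seq library of sorted muscle myeloid cells. The cells were CD45+CD11b+ leukocytes from the quadriceps of *mdx* mice, which lack dystrophin and model Duchenne muscular dystrophy. All mice were *mdx* and 4.5 weeks old at collection, and they had been given vehicle, the mineralocorticoid receptor antagonist spironolactone, or the glucocorticoid prednisolone in drinking water for 7 days. Each group had 3 libraries, 9 in all, and each library held cells pooled from 3 pairs of quadriceps, so a replicate is a pool and *P* values measure the spread between pools. The mice were of both sexes, and the sexes within each pool are not given in the sources used here. No WT group was sequenced in these libraries, so the values compare treatments within dystrophic muscle.

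The name CC refers to adjacent cysteines near the start of the mature protein. The ligands bind G protein-coupled receptors on monocytes, macrophages, eosinophils, and lymphocytes, and a ligand can use several receptors. CCL2, CCL7, and CCL12 act mainly through CCR2 and bring inflammatory monocytes into injured or dystrophic muscle. CCL3 and CCL5 are ligands of CCR1, and CCL4 is a close relative of CCL3. CCL6 and CCL9 are rodent ligands of CCR1, CCL8 is a ligand of CCR8 in mice, and CCL24 (eotaxin-2) acts through CCR3, the receptor of eosinophils. Macrophages make many of these ligands themselves, and glucocorticoids are known to repress several inflammatory chemokine genes.

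Of the 10 genes, 9 lie on mouse chromosome 11 (GRCm39), in a pair of clusters. The first holds *Ccl2* (chr11:81926397-81928279, + strand), *Ccl7* (chr11:81936532-81938351, + strand), *Ccl12* (chr11:81992645-81994466, + strand), and *Ccl8* (chr11:82006007-82007625, + strand). The second, which begins 1408976 bp after the end of *Ccl8*, holds *Ccl5* (chr11:83416602-83425942, - strand), *Ccl9* (chr11:83463745-83473161, - strand), *Ccl6* (chr11:83478708-83483913, - strand), *Ccl3* (chr11:83538670-83540191, - strand), and *Ccl4* (chr11:83553383-83555509, + strand). *Ccl24* is apart on chromosome 5 (chr5:135598668-135601905, - strand). Of the 10 protein-coding genes, 8 have 3 exons in their canonical GENCODE transcript, and *Ccl6* and *Ccl9* have 4. On the opposite strand, *Gm53692* overlaps *Ccl3* by 276 exon bases, and *Gm73713* (at *Ccl5*) and *E230016K23Rik* (at *Ccl6* and *Ccl9*) overlap without shared exon bases. The strand setting of the counting is not given in the sources used here, so reads of *Ccl3* and its antisense partner cannot be told apart. By longest shared run, the most alike pair of transcripts, *Ccl6* and *Ccl9*, was 73.5% identical over its alignment with a run of 25 bases, and *Ccl2* and *Ccl7* were 68.8% identical with a longest run of 23.

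The promoters of *Ccl3*, *Ccl4*, and *Ccl8* are shown because their transcripts fell with prednisolone, and that of *Ccl9*, from the same cluster as *Ccl3* and *Ccl4*, because its transcript did not. Each is the 250 bases before the start of the canonical GENCODE transcript, read from the GRCm39 genome 5′ to 3′ on the strand of the gene: chr11:83540192-83540441 on the - strand, chr11:83553133-83553382 on the + strand, chr11:82005757-82006006 on the + strand, and chr11:83469468-83469717 on the - strand. The start used for *Ccl9* lies inside the bounds of the gene, since longer transcripts begin upstream. Capitals mark letters that match a TATA box (TATAAA), an AP-1 site (TGANTCA), a CRE-like site (TGANGTCA), or a C/EBP site (TTGCGCAA, TTGCACAA, TTGCATAA, TTGTGCAA, or TTGTGTAA) on either strand.
*Ccl3*: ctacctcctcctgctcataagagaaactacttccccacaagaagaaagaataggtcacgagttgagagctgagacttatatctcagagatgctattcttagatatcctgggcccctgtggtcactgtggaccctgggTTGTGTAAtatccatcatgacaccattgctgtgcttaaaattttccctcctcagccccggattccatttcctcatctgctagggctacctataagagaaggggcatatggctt
*Ccl4*: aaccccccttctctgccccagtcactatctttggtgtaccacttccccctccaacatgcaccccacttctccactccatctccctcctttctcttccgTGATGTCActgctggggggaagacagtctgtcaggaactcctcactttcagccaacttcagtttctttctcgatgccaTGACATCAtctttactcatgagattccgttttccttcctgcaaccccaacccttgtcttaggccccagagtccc
*Ccl8*: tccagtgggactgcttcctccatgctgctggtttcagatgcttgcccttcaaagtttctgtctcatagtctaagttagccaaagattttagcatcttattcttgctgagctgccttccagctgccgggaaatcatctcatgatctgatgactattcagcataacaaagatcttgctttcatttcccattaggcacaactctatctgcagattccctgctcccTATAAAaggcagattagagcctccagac
*Ccl9*: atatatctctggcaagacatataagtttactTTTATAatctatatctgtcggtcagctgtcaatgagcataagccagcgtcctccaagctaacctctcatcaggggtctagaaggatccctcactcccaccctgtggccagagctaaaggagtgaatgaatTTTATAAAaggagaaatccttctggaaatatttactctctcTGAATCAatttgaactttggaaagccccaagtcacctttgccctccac

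The TATA box letters lay 28 to 23 bases before the start of *Ccl8* and were found in 5 of the 10 promoters (*Ccl5*, *Ccl7*, *Ccl8*, *Ccl9*, and *Ccl24*), against 11.9% of 21770 promoters of the same length. In *Ccl9* they occurred at 219 to 214 and at 89 to 82 bases before the start, the latter as overlapping matches on both strands. The CRE-like letters stood in *Ccl4* at 152 to 145 and at 74 to 67 bases before the start and also in *Ccl12*, so 2 of 10 promoters held them, against 6.84% of all. These letters were chosen after the *Ccl4* sequence had been seen. *Ccl9* and *Ccl7* held AP-1 letters (6.17% of all promoters), and *Ccl3* held C/EBP letters at 113 to 106 bases before the start (2.31% of all). The STAT motif TTCNNNGAA matched in *Ccl2*, *Ccl12*, and *Ccl24* (7.70% of all), and the glucocorticoid half-site AGAACA in *Ccl12* alone (14.3% of all). A match describes letters and not a bound site.

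Library sizes were even, at 31469815 to 32943512 counts on genes with TMM factors of 0.98 to 1.03, and 16618 genes passed the low-count filter, all 10 ligands among them. The macrophage markers *Csf1r* (1416 to 1818 CPM, the counts of a gene relative to the TMM-normalized library total, across libraries) and *Adgre1*, which encodes F4/80, were present in every library, and none of 10 macrophage markers was at 0. Of 10 genes known to be induced by glucocorticoids, none was called higher with prednisolone against vehicle, and *Per1* was called lower (log2 fold change -1.22 ± 0.17, edgeR adjusted *P* = 0.00436). The fitted change was below 0 for 8 of the 10 with prednisolone (median -0.41) and for 8 with spironolactone (median -0.42). This list therefore did not mark the prednisolone libraries by induction, a limit on reading the prednisolone comparisons. The cause was not tested. For all 10 ligands the library labelled vehicle 1 was the lowest of the vehicle libraries, as it was for 39.9% of all genes tested, and vehicle 2 was the highest for 8 of the 10. On the log2 scale, vehicle 1 lay below the mean of vehicle 2 and 3 in each case, with a difference of -0.26 for *Ccl4* at one end and -1.29 for *Ccl12* at the other, while the median over all genes was 0. In bulk RNA from sorted cells, fewer cells of a type and less RNA per cell cannot be told apart.

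The ligands spanned a wide range of levels. Per transcript length (mean TPM over 9 libraries, which divides counts by exon length and sets each library to the same total), *Ccl6* led at 3538 TPM, rank 26 of the 40043 genes with a known length. It was followed by *Ccl2* at 1632 and *Ccl9* at 1619, which did not separate beyond their spread (*Ccl2* was higher in 6 of 9 libraries). Their order depended on the group. *Ccl2* was the higher in 3 of 3 vehicle libraries (1875 ± 567 against 1547 ± 336 TPM) and *Ccl9* in 2 of 3 prednisolone libraries (1980 ± 235 against 1562 ± 291 TPM), with overlapping ranges in both. Next came *Ccl7* (1089), *Ccl3* (888), and *Ccl4* (697), whose ranges over the 9 libraries overlapped from each to the next, although *Ccl3* exceeded *Ccl4* in all 9. A gap followed, and *Ccl12* (133 TPM) stood below *Ccl4* in every library with no overlap. The lowest levels were those of *Ccl8* (74.7), *Ccl24* (35.2), and *Ccl5* (34.1). *Ccl24* and *Ccl5* did not separate over all 9 libraries, and their order depended on the group. With spironolactone *Ccl5* was above *Ccl24* (43.8 ± 5.42 against 21.7 ± 11.6 TPM, no overlap), and with prednisolone *Ccl24* was above *Ccl5* (47.3 ± 5.68 against 20.4 ± 6.50 TPM, no overlap). Against *Ccl8*, *Ccl24* was the lower in vehicle libraries and the higher in prednisolone libraries, where *Ccl8* had 36.5 ± 4.07 TPM.

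**Figure D1:**
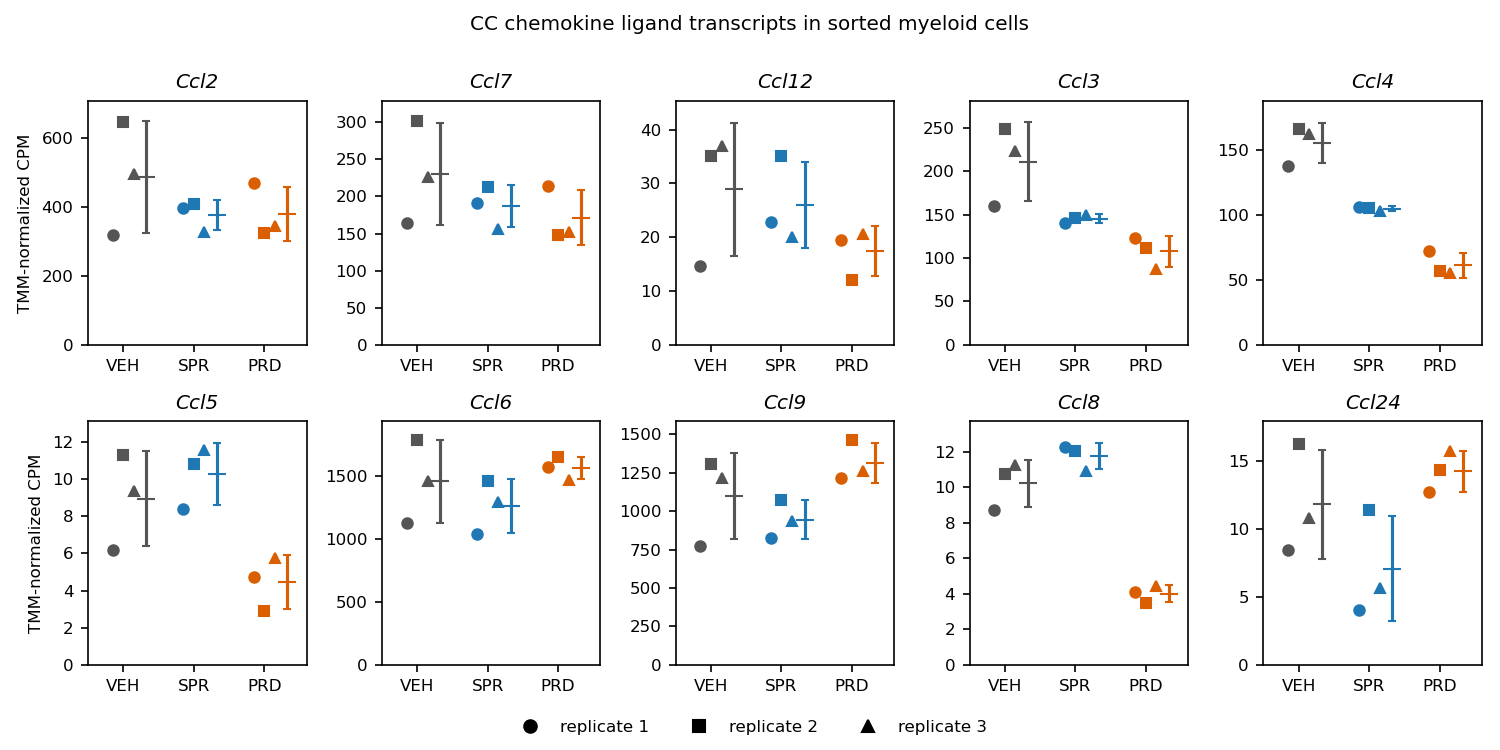
TMM-normalized CPM of each CC chemokine ligand in vehicle (VEH), spironolactone (SPR), and prednisolone (PRD) libraries, with the mean and SD of 3 pools beside the points and a linear axis from 0 in each panel. The PRD points of *Ccl3*, *Ccl4*, *Ccl5*, and *Ccl8* lie below every VEH point, and VEH replicate 1 is the lowest VEH point in each panel.

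Summed over the 10 ligands, transcript levels overlapped among groups, at 8465 to 12914 TPM in vehicle, 8060 to 9542 TPM in spironolactone, and 9177 to 10299.7 TPM in prednisolone libraries. *Ccl6* made up 33.0% ± 1.24 (SD, *n* = 3) of the sum with vehicle, 35.1% ± 3.31 after spironolactone, and 41.1% ± 2.29 after prednisolone. *Ccl9* made up 14.4% ± 0.930, 15.4% ± 0.706, and 20.1% ± 2.49, respectively. The share of *Ccl4* was 9.54% ± 1.49 with vehicle, 7.81% ± 0.780 after spironolactone, and 4.24% ± 0.410 after prednisolone, and that of *Ccl3* was 11.2% ± 0.419, 9.55% ± 0.867, and 6.56% ± 0.676. These shares move together by construction and were not tested.

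**Figure D2:**
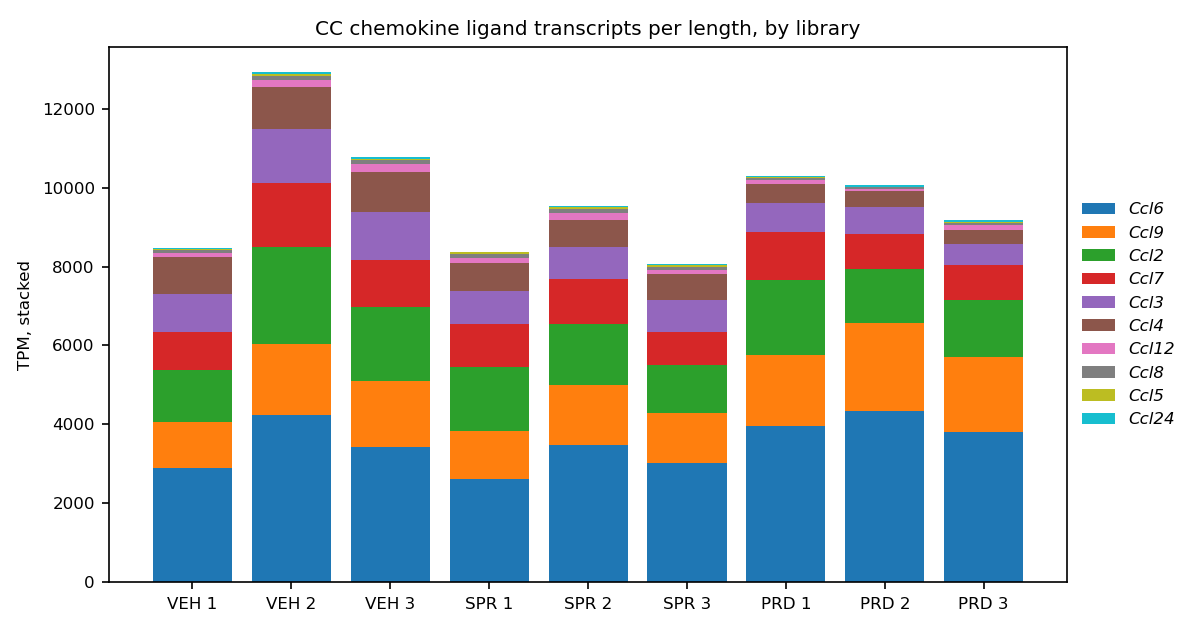
Stacked TPM of the 10 ligands in each library (VEH, SPR, PRD, replicates 1 to 3). Totals run from 8060 in SPR 3 to 12914 in VEH 2, and the *Ccl3* and *Ccl4* segments are thinner in the PRD bars than in the VEH bars.

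The comparison of prednisolone with vehicle asks how a glucocorticoid changes ligand transcripts in these cells. With prednisolone, 3 of the 10 ligands were called, all lower (*Ccl3*, *Ccl4*, and *Ccl8*), where edgeR with an adjusted *P* under 0.05 called 1.76% of all genes tested (0.758% lower and 1.0% higher). At an unadjusted *P* under 0.05 there were 4 (adding *Ccl5*), against 14.2% of all genes. The prednisolone libraries of 4 ligands lay entirely below the vehicle libraries and those of none lay above, and groups failed to overlap for 19.7% of all genes (9.27% lower and 10.4% higher). The fitted change was below 0 for 7 of 10, against 52.2% of all genes. The median log2 fold change of the 10 was -0.58, and that of all genes was -0.01. Without the low-count filter 6 ligands were called lower, with *Ccl5*, *Ccl7*, and *Ccl12* added, and 3.43% of all genes were called (1.66% lower).

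The comparison of spironolactone with vehicle asks the same of a mineralocorticoid receptor antagonist, and it shares the vehicle libraries with the comparison above. With spironolactone, edgeR called 0 of the 10 ligands and 0.0181% of all genes (0% lower and 0.0181% higher). At an unadjusted *P* under 0.05, 2 ligands (*Ccl3* and *Ccl4*) and 9.29% of all genes were found, and DESeq2 called these 2 and 1.60% of all genes (0.500% lower), while limma-voom called 0 of either. The spironolactone libraries of the same pair lay entirely below the vehicle libraries and none lay above, where 13.5% of all genes did not overlap (6.50% lower and 6.99% higher). The fitted change was below 0 for 8 of 10 ligands, against 50.0% of all genes, with a median log2 fold change of -0.26 for the ligands and 0 for all genes. Without vehicle 1, edgeR called 2 ligands lower and 0.0760% of all genes in either direction (0.0468% lower). Without the low-count filter it called 3 (*Ccl3*, *Ccl4*, and *Ccl24*, all lower) and 1.78% of all genes (0.683% lower).

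Spironolactone was then set directly against prednisolone. Here 3 ligands were called, all higher with spironolactone (*Ccl4*, *Ccl5*, and *Ccl8*), where edgeR called 5.17% of all genes (2.38% higher and 2.79% lower). At an unadjusted *P* under 0.05 there were 6 of 10, against 22.5% of all genes. Libraries did not overlap for 7 ligands. Those of *Ccl3*, *Ccl4*, *Ccl5*, and *Ccl8* were higher with spironolactone, and those of *Ccl6*, *Ccl9*, and *Ccl24* were lower, where 30.3% of all genes did not overlap (15.1% higher and 15.2% lower). The fitted change was below 0 for 4 of 10 ligands and for 46.6% of all genes, and its median was 0.28 for the ligands and 0.03 for all genes. Without vehicle 1, 5 ligands were called, with *Ccl3* and *Ccl9* added, and the share of all genes called rose as well, to 11.1%. Without the low-count filter 7 were called, with *Ccl3*, *Ccl9*, *Ccl12*, and *Ccl24* added, and 6.52% of all genes.

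**Figure D3:**
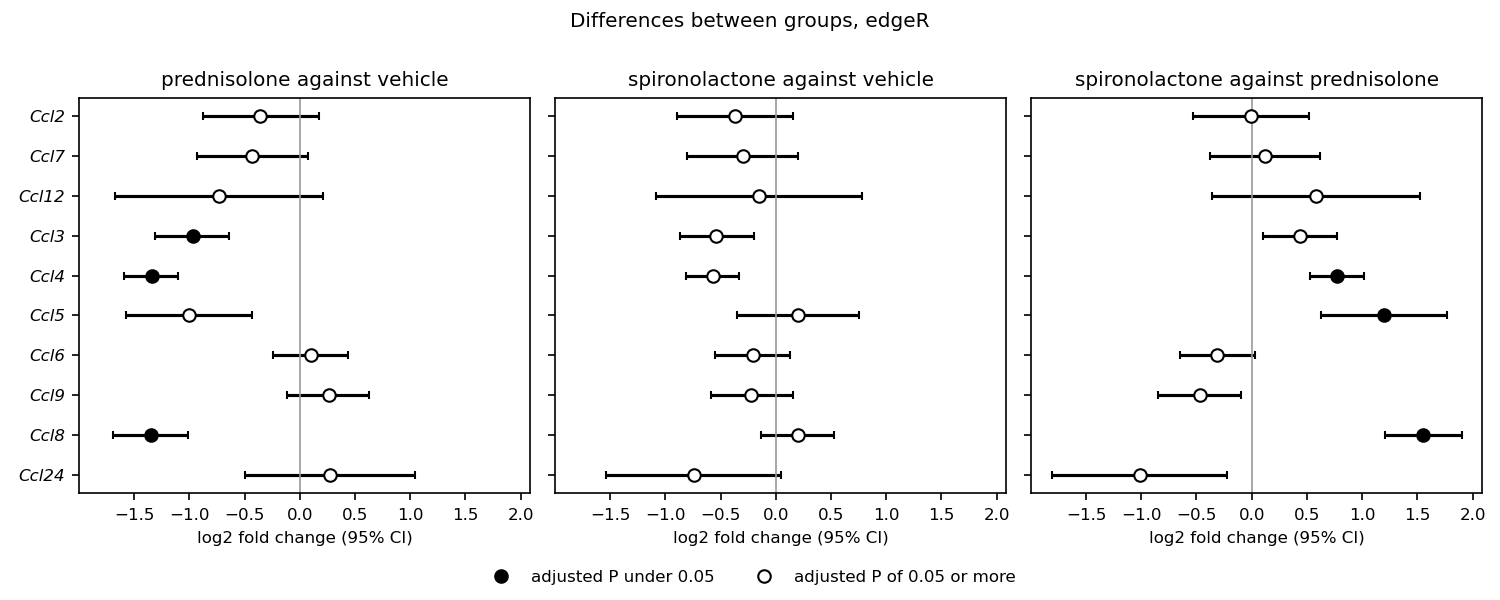
Log2 fold changes of the 10 ligands with 95% confidence intervals from edgeR in the 3 comparisons. Filled points have an adjusted *P* under 0.05 over all genes tested. They are *Ccl3*, *Ccl4*, and *Ccl8* in prednisolone against vehicle and *Ccl4*, *Ccl5*, and *Ccl8* in spironolactone against prednisolone.

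Among the MIP-1 ligands, *Ccl4*, which encodes MIP-1β, had 138, 167, and 163 CPM in vehicle libraries 1 to 3, 107, 105, and 103 CPM in spironolactone libraries, and 72.6, 56.5, and 55.1 CPM in prednisolone libraries. The 3 groups did not overlap, with vehicle highest, spironolactone between, and prednisolone lowest, and the 3 spironolactone pools lay within a few CPM of each other. Against vehicle, *Ccl4* fell with prednisolone by a log2 fold change of -1.34 ± 0.11 (SE; 2.54-fold lower, edgeR adjusted *P* = 0.000219), the smallest *P* of the 16618 genes tested. With spironolactone its log2 fold change was -0.57 ± 0.11 (adjusted *P* = 0.106), and it passed the threshold without vehicle 1 (-0.65, adjusted *P* = 0.0318). Set directly against prednisolone, *Ccl4* was 1.71-fold higher with spironolactone (0.77 ± 0.11, adjusted *P* = 0.00254), a call that held without any single library.

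*Ccl3* encodes MIP-1α and lies 13191 bp from *Ccl4* in the genome. Its vehicle libraries had 160.3, 249, and 224 CPM, its spironolactone libraries 140.1, 146, and 149.6 CPM, and its prednisolone libraries 123, 112, and 87.5 CPM. The order of groups was that of *Ccl4*, again without overlap, although vehicle 1 was close to the highest spironolactone pool. *Ccl3* was 1.96-fold lower with prednisolone than with vehicle (log2 fold change -0.97 ± 0.16, edgeR adjusted *P* = 0.00966). Neither the log2 fold change of -0.54 ± 0.15 with spironolactone (adjusted *P* = 0.235) nor that of spironolactone against prednisolone (0.44 ± 0.15, adjusted *P* = 0.119) passed. Without vehicle 1 both did, at -0.70 (adjusted *P* = 0.0371) and 0.43 (adjusted *P* = 0.0190).

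*Ccl5*, which encodes RANTES, a chemokine of T cells and NK cells as well as macrophages, was among the scarcest of the 10 per length, with 95 to 194 counts per prednisolone library. Its levels were 6.20, 11.3, and 9.35 CPM in vehicle, 8.42, 10.8, and 11.6 CPM in spironolactone, and 4.74, 2.90, and 5.76 CPM in prednisolone libraries. The prednisolone libraries were below all others, and vehicle and spironolactone overlapped. The log2 fold change with prednisolone against vehicle was -1.0 ± 0.26 (2.0-fold lower) and did not pass (edgeR adjusted *P* = 0.0789), though it did without vehicle 1 (-1.21, adjusted *P* = 0.0119). With spironolactone against vehicle it was 0.20 ± 0.25 (adjusted *P* = 0.878, 95% CI -0.35 to 0.75), and without vehicle 1 it was -0.01. Against prednisolone, *Ccl5* was 2.30-fold higher with spironolactone (1.20 ± 0.26, adjusted *P* = 0.0221). That call was lost without spironolactone 2 (adjusted *P* = 0.0685), spironolactone 3 (0.0884), prednisolone 1 (0.0797), or prednisolone 2 (0.0860).

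Some markers of NK and T cells were also higher with spironolactone than with prednisolone. Of 10 such markers, 9 were tested, and 4 were called higher with spironolactone than with prednisolone (*Gzma*, *Nkg7*, *Gzmb*, and *Ncr1*, at 3.77-fold to 4.94-fold). Over all genes, 2.38% were called higher in that comparison. The fitted change was above 0 for 8 of the 9 and below it for *Klrb1c* (-0.27 ± 0.32, edgeR adjusted *P* = 0.681). *Trbc2*, a T cell receptor gene, was at 0 in every library. The 10 markers summed to 7.60 to 12.5 CPM in vehicle, 15.6 to 24.4 CPM in spironolactone, and 6.05 to 10.99 CPM in prednisolone libraries, so that vehicle and prednisolone overlapped where *Ccl5* did not. Of 6 B cell markers, 2 were called higher with spironolactone than with prednisolone (*Cd79a* and *Cd79b*), and their sum was 6.46 to 8.69, 8.80 to 12.3, and 3.88 to 6.39 CPM, with *Ighm* at 0 in every library. The CD45+CD11b+ gate was set for myeloid cells and not for T or B cells, whose markers were nonetheless read here. The part of NK, T, and B cells in the result for *Ccl5* was not tested.

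*Ccl8* (MCP-2) set prednisolone apart from both other groups. It had 8.70, 10.7, and 11.2 CPM in vehicle, 12.3, 12.04, and 10.9 CPM in spironolactone, and 4.10, 3.48, and 4.42 CPM in prednisolone libraries, from 114 to 149 counts per library in the last group. Every prednisolone library was far below every other library, and vehicle and spironolactone overlapped. *Ccl8* was 2.55-fold lower with prednisolone than with vehicle (log2 fold change -1.35 ± 0.16, edgeR adjusted *P* = 0.00141). It was 2.93-fold higher with spironolactone than with prednisolone (1.55 ± 0.16, adjusted *P* = 0.000344). Both calls held without any single library. With spironolactone against vehicle the log2 fold change was 0.20 ± 0.15 (adjusted *P* = 0.743, 95% CI -0.13 to 0.53), and without vehicle 1 it was 0.10.

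The CCR2 ligands, next to *Ccl8* in the genome, gave no call with the low-count filter. *Ccl2*, which encodes MCP-1, the main attractant of inflammatory monocytes, had 319.6, 645, and 496 CPM in vehicle, 397, 408, and 327 CPM in spironolactone, and 470.4, 324, and 344 CPM in prednisolone libraries. All 3 groups overlapped, and vehicle 1 was below every treated library.

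The log2 fold change of *Ccl2* was -0.36 ± 0.23 with prednisolone (edgeR adjusted *P* = 0.554, 95% CI -0.88 to 0.17) and -0.37 ± 0.23 with spironolactone (adjusted *P* = 0.692, 95% CI -0.89 to 0.16). Without vehicle 1 these were -0.59 and -0.60, and without vehicle 2 they were -0.10 and -0.11, none of which passed. Between the drugs it was -0.01 ± 0.23 (95% CI -0.53 to 0.52). *Ccl7* (MCP-3) followed the same libraries, with 164, 302, and 226 CPM in vehicle, 192, 212, and 156 CPM in spironolactone, and 215, 148, and 152 CPM in prednisolone libraries. Prednisolone gave it a log2 fold change of -0.43 ± 0.22 (adjusted *P* = 0.439) and spironolactone one of -0.30 ± 0.22 (adjusted *P* = 0.741; -0.50 without vehicle 1). The change with prednisolone ran from -0.62 to -0.18 without each library and did not pass. Without the low-count filter the change with prednisolone passed (-0.41, adjusted *P* = 0.00984).

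*Ccl12* (MCP-5) had the largest spread of the 10 ligands within vehicle, where its libraries had 14.7, 35.1, and 36.99 CPM, a coefficient of variation of 42.8%. Spironolactone libraries had 22.8, 35.2, and 20.1 CPM and prednisolone libraries 19.4, 12.01, and 20.7 CPM. The groups overlapped, and vehicle 2 and 3 were above every prednisolone library. The log2 fold change was -0.73 ± 0.40 with prednisolone (edgeR adjusted *P* = 0.48, 95% CI -1.67 to 0.21) and -0.15 ± 0.40 with spironolactone (adjusted *P* = 0.954; -0.47 without vehicle 1). Between the drugs, *Ccl12* differed by 0.58 ± 0.40 (adjusted *P* = 0.45). Without the low-count filter it passed with prednisolone (-0.72, adjusted *P* = 3.8e-06) and between the drugs (0.56, adjusted *P* = 0.000566).

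The CCR1 ligands *Ccl6* and *Ccl9*, the most abundant of the 10 by CPM, did not fall with prednisolone. *Ccl6* had 1129.6, 1787, and 1461 CPM in vehicle, 1038, 1463, and 1290.3 CPM in spironolactone, and 1575, 1649, and 1469 CPM in prednisolone libraries. Every prednisolone library was above every spironolactone library, and vehicle overlapped both. Its log2 fold change was 0.10 ± 0.16 with prednisolone (edgeR adjusted *P* = 0.838, 95% CI -0.24 to 0.44), -0.21 ± 0.16 with spironolactone (adjusted *P* = 0.742), and -0.31 ± 0.16 for spironolactone against prednisolone (adjusted *P* = 0.272). Without vehicle 1 the sign with prednisolone turned, to -0.05, and the change with spironolactone was -0.36.

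*Ccl9* (MIP-1γ) had 776, 1303, and 1214 CPM in vehicle, 825, 1075, and 934 CPM in spironolactone, and 1217, 1459.8, and 1258 CPM in prednisolone libraries. As with *Ccl6*, the drugs did not overlap and vehicle overlapped both. The log2 fold change was 0.26 ± 0.17 with prednisolone (edgeR adjusted *P* = 0.556, 95% CI -0.12 to 0.63) and -0.22 ± 0.17 with spironolactone (adjusted *P* = 0.76). Without vehicle 1 these were 0.06 and -0.42, and neither passed. For spironolactone against prednisolone it was -0.47 ± 0.17 (adjusted *P* = 0.128). That difference passed in DESeq2 (adjusted *P* = 0.0334), in edgeR on the 2 groups alone (0.0189), with a replicate block (0.0287), and without vehicle 1 (0.0113).

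*Ccl24* encodes eotaxin-2, a ligand of CCR3 made by alternatively activated macrophages. It had 8.45, 16.3, and 10.8 CPM in vehicle, 4.08, 11.4, and 5.70 CPM in spironolactone, and 12.7, 14.4, and 15.7 CPM in prednisolone libraries. The spironolactone libraries were all below the prednisolone libraries, and vehicle overlapped both. Within spironolactone, replicate 2 was well above replicates 1 and 3, and the coefficient of variation was 54.7%, against 10.6% with prednisolone.

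The log2 fold change of *Ccl24* was 0.27 ± 0.35 with prednisolone (edgeR adjusted *P* = 0.796) and -0.74 ± 0.35 with spironolactone (adjusted *P* = 0.57). That with prednisolone ran from 0.08 (without vehicle 1) to 0.57 without each library and did not pass. For spironolactone against prednisolone the change of *Ccl24* was -1.01 ± 0.35 (adjusted *P* = 0.128), and it passed with a replicate block (-1.14, adjusted *P* = 0.0132) and without spironolactone 2 (-1.55, adjusted *P* = 0.0141). Resident-like macrophage markers were mixed between the drugs, with 5 of 10 above 0, 5 below, and a median log2 fold change of 0.01. Of the 10, *Lyve1* and *F13a1* were called lower and *Gas6* higher with spironolactone than with prednisolone, against 2.79% and 2.38% of all genes. The 10 summed to 1412 to 1705 CPM in vehicle, 1432 to 1607 CPM in spironolactone, and 1757 to 1983 CPM in prednisolone libraries, with none at 0. *F13a1* alone had 389 ± 46.9 CPM in spironolactone and 717 ± 59.7 CPM in prednisolone libraries, which made up most of the gap between the drugs in that sum. Monocyte markers, whose sum was 4242 to 5668 CPM in spironolactone and 7786 to 9614 CPM in prednisolone libraries, also did not overlap between the drugs, and 1 of 10 (*Fn1*) was called lower with spironolactone. That sum was carried by *Fn1* (2491 against 5420.5 CPM) and *Chil3* (432 against 1141 CPM), while *Ly6c2* (239 against 146 CPM) and *Plac8* (112 against 61.3 CPM) were higher with spironolactone in all libraries without passing, and the 10 split into 5 above and 5 below 0 with a median of -0.05. The part of either list in the results for *Ccl24*, *Ccl6*, and *Ccl9* was not tested.

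Receptors of these ligands were read in the same libraries. *Ccr1* and *Ccr2* gave no call against vehicle or between drugs. *Ccr2* had 593 ± 139 CPM (SD, *n* = 3) in vehicle, 589 ± 89.2 CPM in spironolactone, and 532 ± 45.1 CPM in prednisolone libraries, with overlap among all groups and a log2 fold change of -0.16 ± 0.16 with prednisolone (edgeR adjusted *P* = 0.721; -0.32 without vehicle 1). *Ccr1* had 233 ± 56.7, 192 ± 31.6, and 259.6 ± 17.9 CPM in the same order. The spironolactone libraries of *Ccr1* were all below its prednisolone libraries (-0.44 ± 0.17, edgeR adjusted *P* = 0.146). This difference passed without vehicle 1 (adjusted *P* = 0.0190) and in 2 of the 7 alternative settings. Those of its ligands *Ccl6* and *Ccl9* were also all below, while those of its ligands *Ccl3* and *Ccl5* were all above.

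*Ccr3*, the receptor of CCL24, changed with prednisolone. It had 14.8, 12.3, and 10.5 CPM in vehicle, 11.3, 18.3, and 18.3 CPM in spironolactone, and 4.53, 5.20, and 6.68 CPM in prednisolone libraries, with prednisolone below all others. It was 2.29-fold lower with prednisolone than with vehicle (-1.20 ± 0.21, edgeR adjusted *P* = 0.0128), a call lost without prednisolone 1 (adjusted *P* = 0.0615) or prednisolone 2 (0.0998). Against prednisolone it was 2.91-fold higher with spironolactone (1.54 ± 0.21, adjusted *P* = 0.00205). Of 10 eosinophil and mast cell markers, *Siglecf* and *Il5ra* were called lower with prednisolone than with vehicle and higher with spironolactone than with prednisolone. Over all genes, 0.758% were called lower in the first comparison and 2.38% higher in the second. The list summed to 55.1 to 95.9, 57.9 to 111, and 49.8 to 69.7 CPM in vehicle, spironolactone, and prednisolone libraries, and *Epx*, an eosinophil granule gene below the low-count filter, was at 0 in spironolactone 1 and prednisolone 2. With prednisolone against vehicle, 6 of the 9 tested genes of the list had a fitted change above 0, and the median log2 fold change was 0.27. The mast cell protease genes *Tpsb2* (1.39 ± 0.48, edgeR adjusted *P* = 0.214), *Mcpt4* (0.82 ± 0.39, adjusted *P* = 0.369), and *Cpa3* (0.66 ± 0.48, adjusted *P* = 0.595) lay entirely above vehicle with prednisolone without passing. With spironolactone against vehicle, 7 of the 9 were above 0, with a median of 0.5. The part of these markers in the result for *Ccr3* was not tested. *Ccr8*, the receptor of CCL8 in mice, was below the low-count filter, with 0 to 15 counts per library.

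*Ccrl2*, an atypical receptor that does not signal like the others, had 439, 432, and 488 CPM in vehicle, 227, 281, and 269 CPM in spironolactone, and 257, 226, and 146 CPM in prednisolone libraries. Both drug groups lay below vehicle. It was 2.16-fold lower with prednisolone (-1.11 ± 0.17, edgeR adjusted *P* = 0.00888), and its log2 fold change with spironolactone was -0.81 ± 0.17 (adjusted *P* = 0.129). Of the 10 CC receptor genes listed here, 8 were tested, and *Ccr3* was the 1 called in any comparison.

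**Figure D4:**
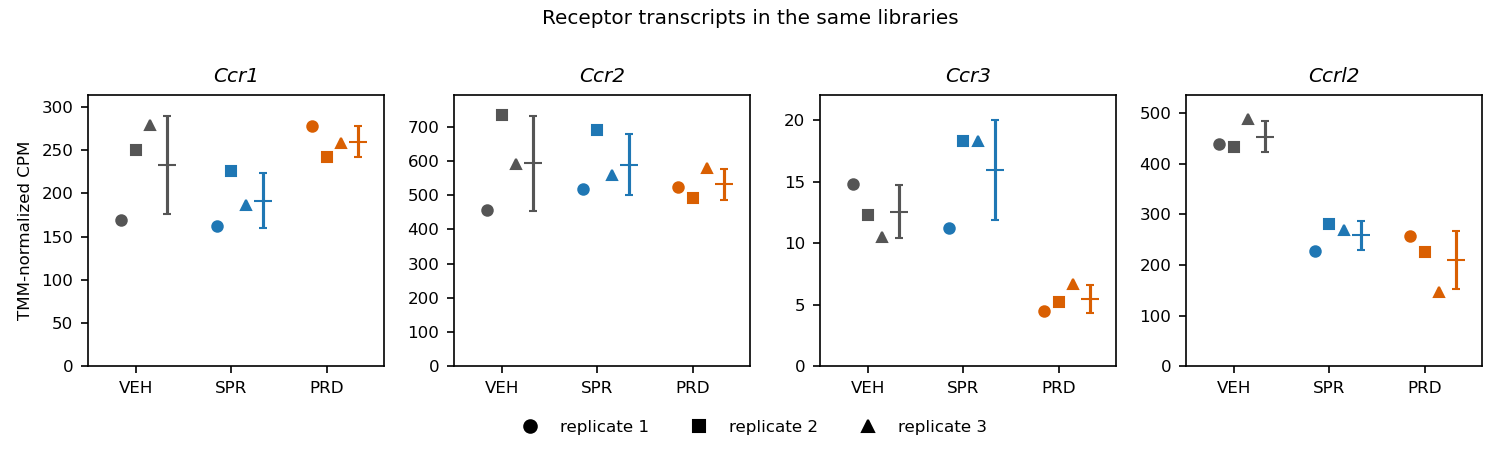
TMM-normalized CPM of *Ccr1*, *Ccr2*, *Ccr3*, and *Ccrl2* in the same libraries, with the mean and SD of 3 pools beside the points and a linear axis from 0. The PRD points of *Ccr3* lie below all VEH and SPR points, both drugs lie below VEH for *Ccrl2*, and the groups of *Ccr2* overlap.

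The other CC ligand genes numbered 14. Of these, 4 (*Ccl20*, *Ccl21b*, *Ccl21d*, and *Ccl26*) were at 0 in every library, 6 passed the low-count filter, and none was called in any comparison. *Ccl22*, a macrophage and dendritic cell ligand of CCR4, was the most abundant of these, at 27.5 ± 7.10 CPM in vehicle, 26.98 ± 8.15 CPM in spironolactone, and 36.9 ± 4.45 CPM in prednisolone libraries (0.42 ± 0.23 with prednisolone, edgeR adjusted *P* = 0.464). The eosinophil attractant *Ccl11* had 1.01 ± 0.565, 2.01 ± 0.701, and 1.25 ± 0.474 CPM, respectively, and its spironolactone libraries were all above vehicle (1.0 ± 0.46, adjusted *P* = 0.535).

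Transcription factors and regulators known to act on chemokine genes included several that fell with prednisolone. Of 20 such genes, 5 were called lower than in vehicle (*Atf3*, *Jun*, *Cebpb*, *Irf1*, and *Junb*) and none higher, with a list median of -0.34. *Jun*, a subunit of AP-1, had 1543, 1229, and 1132 CPM in vehicle, 1259.6, 1026, and 1067 CPM in spironolactone, and 762, 623, and 486 CPM in prednisolone libraries (-1.06 ± 0.16 with prednisolone, edgeR adjusted *P* = 0.00661). *Atf3*, a factor of the ATF/CREB family, changed by -1.07 ± 0.15 (adjusted *P* = 0.00455) and *Cebpb*, a factor of inflammatory macrophages, by -0.86 ± 0.15 (adjusted *P* = 0.0108). With spironolactone none of the 20 was called, 9 had an unadjusted *P* under 0.05, against 9.29% of all genes, and the median was -0.20. Between the drugs, *Irf1*, *Irf8*, *Jun*, and *Atf3* were called higher with spironolactone, where 2.38% of all genes were called higher. Among 20 genes of chemokine receptor signaling, *Rgs1* (-1.0 ± 0.18, adjusted *P* = 0.0152) and *Rgs2* (-0.59 ± 0.09, adjusted *P* = 0.00455), which end G protein signals, were called lower with prednisolone, and *Rgs2* was called higher with spironolactone than with prednisolone. The shares of all genes were 0.758% called lower in the first comparison and 2.38% called higher in the second.

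The immediate early and dissociation list, genes that cells switch on within minutes and that also respond to tissue dissociation, moved beside *Ccl3* and *Ccl4*. It shares 6 of its 15 genes with the regulators above (*Fos*, *Fosb*, *Jun*, *Junb*, *Egr1*, and *Atf3*). Of the 15, 7 were called lower with prednisolone than with vehicle, against 0.758% of all genes, and the list median was -0.47. Among the 7 were *Jun*, *Junb*, and *Atf3*, which are counted in both lists. Against vehicle, spironolactone gave 0 calls, 7 genes at an unadjusted *P* under 0.05 (against 9.29% of all genes), and a median of -0.28. The summed level was 14060.2 to 14714 CPM in vehicle, 11070.1 to 11717 CPM in spironolactone, and 7669 to 11337 CPM in prednisolone libraries, and none of the 15 was at 0. Vehicle was above both drugs as for *Ccl4*, but prednisolone 1 fell within the spironolactone range, where *Ccl4* did not. The part of these genes in the results for *Ccl3* and *Ccl4* was not tested.

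**Figure D5:**
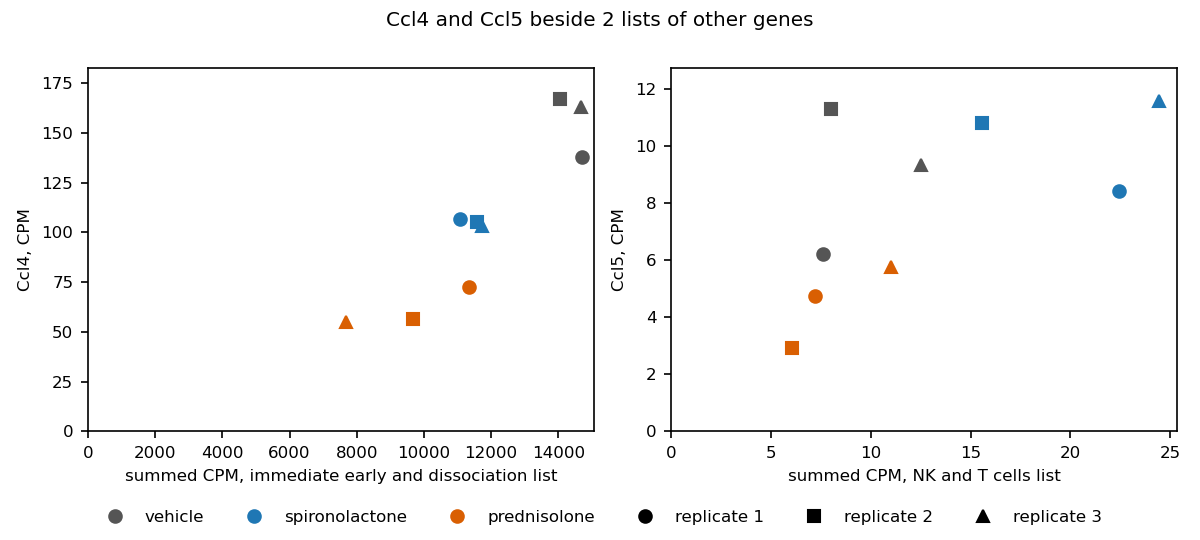
Left, *Ccl4* against the summed CPM of the immediate early and dissociation list, and right, *Ccl5* against the summed CPM of the NK and T cell list, 1 point per library, with linear axes from 0. *Ccl4* and its list are highest in the 3 vehicle libraries. *Ccl5* and its list are higher in every spironolactone library than in every prednisolone library, and *Ccl5* in vehicle 2 is high at a low level of its list. Neither relation was tested.

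Markers of other cells that the sort could hold differed between libraries. Neutrophil markers summed to 755 to 4791 CPM in vehicle, 1345 to 3621 CPM in spironolactone, and 794 to 1021 CPM in prednisolone libraries, with none of 10 called in any comparison and none at 0. Endothelial markers summed to 186 to 241, 286 to 407, and 170.3 to 222 CPM, and 6 of 10 were called higher with spironolactone than with prednisolone, against 2.38% of all genes. Dendritic cell markers summed to 119.6 to 132, 139 to 217, and 141 to 171 CPM, fibro-adipogenic markers to 1097 to 1395, 1295 to 1756, and 1349 to 1399.5 CPM, and skeletal muscle markers to 239 to 374, 444 to 755, and 377 to 563 CPM. Macrophage markers summed to 9272 to 10899, 10383 to 11453, and 8559 to 9578 CPM. The CD45+CD11b+ gate is meant to remove endothelial, fibro-adipogenic, and skeletal muscle cells, whose markers were nonetheless read here. The part of these cells in the ligand results was not tested.

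Across the 9 libraries, several pairs of ligands varied together. As a description over libraries that share treatment and depth, the correlation of log2 CPM was 0.97 for *Ccl2* and *Ccl7*, 0.94 for *Ccl3* and *Ccl4*, 0.93 for *Ccl6* and *Ccl9*, and 0.91 for *Ccl5* and *Ccl8*. After the group means were removed, these values were 0.98, 0.81, 0.92, and 0.74. *Ccl24*, on another chromosome, correlated with *Ccl6* (0.88) and *Ccl9* (0.83), with 0.85 and 0.74 after the group means were removed. *Ccl8* and *Ccl9* had -0.57 over all libraries and 0.40 after the group means were removed. The genes outside the family with the most similar pattern, among 13230 candidates with a mean of at least 1 CPM, were *Gm6377* for *Ccl2* (0.992) and *Ccl7* (0.983), *Trmt44* for *Ccl3* (0.950), *Rraga* for *Ccl4* (0.973), *Lst1* for *Ccl5* (0.974), *F3* for *Ccl6* (0.951), *Wfdc17* for *Ccl8* (0.991), *Emb* for *Ccl9* (0.971), *Samhd1* for *Ccl12* (0.973), and *Pgap2* for *Ccl24* (0.971).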

How the data were processed

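The 9 libraries hold RNA of CD45+CD11b+ cells sorted from *mdx* quadriceps, and groups were taken from the treatment labels. The deposited values are whole counts per gene, made by the authors by alignment to mm39 with HISAT2 2.2.1 and counting with HTSeq 0.11.3, without normalization. The annotation release and strand setting are not given in the sources used here. The authors' tables of comparisons, which hold log2 fold changes and *P* values from DESeq2 1.32.0, were not used. Closing lines that name no gene took 17.2% to 21.8% of reads and were left out.

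Counts were tested with the quasi-likelihood test of edgeR 4.0.16 in R 4.3.3 (TMM, robust fit of all 9 libraries, filterByExpr with a minimum count of 10 and total of 15, two-sided, Benjamini-Hochberg over 16618 genes, threshold 0.05). Levels are TMM-normalized CPM, and TPM used GENCODE exon lengths matched by symbol (40043 genes, at least 90.9% of counts). Correlations used log2 CPM with a prior count of 2. Libraries of the same group differed by 19.8 to 64.4 in chi-square per degree of freedom, far above sampling error. Positions, promoters, and overlaps came from GENCODE on GRCm39.

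The scripts were tested on simulated data. The named genes were the 10 ligands, the receptors *Ccr1*, *Ccr2*, *Ccr3*, and *Ccr8*, up to 4 called genes per list and comparison with the smallest adjusted *P*, and the genes closest in pattern. *Ccl11*, *Ccl22*, *Tpsb2*, *Mcpt4*, *Cpa3*, *Chil3*, *Ly6c2*, *Plac8*, *Csf1r*, *Adgre1*, *Cd163*, *Ccrl2* as a receptor figure, and markers at 0 were named outside that rule or after their values were seen. So were *Klrb1c* and the genes *Fos*, *Fosb*, and *Egr1*, which stand in both regulator lists. A further receptor is not reported here. The ligands and all gene lists were chosen with earlier results of these data known. Alternatives were DESeq2 1.42.0, limma-voom (limma 3.58.1), RLE or library totals as normalization, no filter, 2 groups only, a replicate block, and leaving out each library.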

Additional observations from a re-analysis of the deposited data

How the results depend on the processing

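Prednisolone against vehicle called 3 ligands under every setting except DESeq2 (4) and no low-count filter (6), and 3 to 4 without each library. Over all genes it called 293, against 684 with DESeq2, 1019 without the filter, and 69 (without prednisolone 2) to 826 (without vehicle 1) without each library. Spironolactone against vehicle called 0 ligands, 2 with DESeq2, 3 without the filter, and 0 to 2 without each library. Over all genes it called 3, against 263 with DESeq2, 0 with limma-voom, 528 without the filter, 8 with a replicate block, and 0 to 34 (without spironolactone 2) without each library. Spironolactone against prednisolone called 3 ligands, 4 with DESeq2, 7 without the filter, 5 with 2 groups only, 5 with a replicate block, and 2 to 5 without each library. Over all genes it called 859, against 1594 with DESeq2, 1940 without the filter, 1598 with 2 groups only, 1082 with a replicate block, and 232 (without prednisolone 2) to 1898 (without vehicle 1) without each library. The cause of these shifts was not tested, beyond the number of genes tested or libraries used. Over all genes tested, the deviations of same-numbered libraries from their group means had correlations of -0.04 to 0.15. Whether the numbers mark a shared batch is not stated in the sources used here and was not tested. The block added *Ccl9* and *Ccl24* to the calls between drugs, and with prednisolone against vehicle it gave 336 calls over all genes. Signs turned only for changes that did not pass. Without each library, prednisolone against vehicle ran from -0.05 to 0.27 for *Ccl6*, -0.03 to 0.31 for *Ccr1*, and -0.32 to 0.03 for *Ccr2*. Spironolactone against vehicle ran from -0.01 (without vehicle 1) to 0.40 for *Ccl5*, -0.47 to 0.06 for *Ccl12*, and -0.17 to 0.17 for *Ccr2* (0.01 in limma-voom). Spironolactone against prednisolone ran from -0.11 to 0.17 for *Ccl2* (0.00 in limma-voom). The ligands with the fewest counts (*Ccl5* from 95 and *Ccl8* from 114 per library) carry the most counting error. The median log2 fold change of all genes lay between -0.016 and 0.032 in the 3 comparisons under these alternatives.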
